A study of Mus musculus with 12 samples.

Results

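Lin28 and 8 oncofetal genes known as targets of the let-7 microRNAs were followed across mouse embryonic stem (ES) cells without Dicer. The genes were Lin28, Hmga1, Hmga2, Igf2bp1, Igf2bp2, Igf2bp3, Plagl2, Mycn and Arid3b. They were chosen by name, by keeping every probe whose gene name on the array was 1 of these 9 symbols or its newer form (Lin28 is now Lin28a). This gave 18 probes of 9 genes, among 41174 distinct probes that stand for 22410 gene names. Each probe is described apart.

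The samples were 12 Agilent 2-colour arrays that compared 7 RNAs. Of these, 2 were labelled as Dicer1-null cells overexpressing Dnmt1 (clones 27G5 and 27H10), 2 as the same Dicer1-null clones overexpressing Dnmt3a,3b, 2 as Dicer1-null cells of clones 27G5 and 27H10, and 1 as wild-type ES cells. Dicer1 encodes the nuclease that cuts microRNA precursors, and the Dnmt genes encode DNA methyltransferases. All 4 lines labelled with a Dnmt gene lack Dicer1 as their parents do. The cells grew on gelatin with leukemia inhibitory factor, and no feeder layer is named. The labels give neither the part of Dicer1 that is missing nor the vector or promoter of the Dnmt genes, and each Dicer1-null genotype rests on 2 clones. Every pair of RNAs was on 2 arrays of opposite dye orientation, which left 6 ratios: 3 comparisons in each of 2 clones.

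The green channel had a median signal of 112 to 135 per array and the red channel 234 to 334, and all 18 probes were well above background in both channels of all 12 arrays. The arrays that compared Dnmt-labelled lines with their parents lay on 1 slide per clone, and wild-type RNA was hybridised on a slide of its own. Clone and slide cannot be told apart in the comparisons with a Dnmt label. Dicer1 was lower in Dicer-null than in wild-type cells at both of its probes, with -4.07 ± 0.08 for A_51_P333060 and -0.53 ± 0.04 for A_51_P483059 (log2 ratio, SD, n = 2 clones). No Dnmt probe rose in a line labelled for that gene. Dnmt1 was at 0.27 ± 0.23 in the Dnmt1-labelled lines over their parents (adjusted p = 0.109), and Dnmt3b fell, with -1.04 ± 0.59, in the Dnmt3a,3b-labelled lines (adjusted p = 0.0306). None of the 3 Dnmt3a probes rose there (0 calls, with values of -1.03, 0.20 and -0.72). Values under the other label were close to these. Dnmt1 was at 0.27 ± 0.07 in the Dnmt3a,3b-labelled lines (adjusted p = 0.109). In the Dnmt1-labelled lines Dnmt3b fell, with -1.06 ± 0.40 (adjusted p = 0.0282). Dnmt3a probe A_52_P169048 fell there as well, with -1.34 ± 0.58 (adjusted p = 0.0372), and the other Dnmt3a probes were at 0.05 and -1.04, not called. Whether these probes can read an introduced Dnmt cDNA is not given in the labels, so these lines are called by their labels throughout.

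Lin28 binds the precursors of let-7 and keeps them from being cut into mature let-7, and let-7 in turn represses Lin28 and a group of growth genes that are high in the embryo, low in most adult tissues and high again in many tumours. ES cells express Lin28 and hold little mature let-7, which appears as they differentiate. Mature let-7 needs Dicer, so cells without Dicer lack this arm of control. The microRNAs themselves were not measured on these arrays.

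The 9 mature mouse let-7 family members listed in RefSeq as 5p arms (annotation on GRCm38.p6) share 1 seed, bases 2 to 8, which pairs with target messages. They are shown because this seed is what makes the genes below candidate targets. The seed is in capitals:
let-7a-5p: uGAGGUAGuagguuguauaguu
let-7b-5p: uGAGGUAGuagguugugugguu
let-7c-5p: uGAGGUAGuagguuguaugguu
let-7d-5p: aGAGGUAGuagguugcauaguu
let-7e-5p: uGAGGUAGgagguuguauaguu
let-7f-5p: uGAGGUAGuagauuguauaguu
let-7g-5p: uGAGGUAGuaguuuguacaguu
let-7i-5p: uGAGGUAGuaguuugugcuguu
miR-98-5p: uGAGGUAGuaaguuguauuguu

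The DNA letters that pair with this seed are CTACCTC. Among the 18 probes, 2 hold these letters within their own 60 bases, and none (0) holds the reverse complement. Over all 41174 probes on the array, 0.306% hold CTACCTC and 0.274% its reverse complement. The 30 bases around the match are shown for both, with the match in capitals, because these probes read a stretch of message that carries the seed match. Their positions on build mm7 are chr10:119755899-119755958 for the Hmga2 probe and chr11:96067137-96067196 for the Igf2bp1 probe, both on the minus strand.
Hmga2 A_52_P300730: atcaaaacacactaCTACCTCttaagtccc
Igf2bp1 A_52_P295950: tggttttaatCTACCTCttagcaaaacaat
A match is a description of the letters and not a tested site. Of all tested probes, 97 hold CTACCTC. Of these 97, 15 rose and 15 fell in Dicer-null over wild-type cells, or 15.5% each way, beside 20.0% and 19.8% of all tested probes. For the Dnmt1 label 13 rose (13.4%, beside 11.6%) and 8 fell (8.25%, beside 11.2%), and for the Dnmt3a,3b label 14 rose (14.4%, beside 10.8%) and 6 fell (6.19%, beside 11.2%). The median log2 ratio of the 97 probes was 0.02 for the Dnmt1 label, 0.05 for the Dnmt3a,3b label and 0.02 in Dicer-null over wild-type cells.

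Values below are log2 ratios of the first-named cells over the second. For each clone the array with the first-named RNA in red (Cy5) is given first and the dye-swapped array second. A mean is over the 2 clones, ± SD (n = 2), and a probe was called at an adjusted p under 0.05 in limma over 28805 tested probes. Separate cultures are not named in the labels, so a p-value here covers the spread between these samples alone, and the wild-type cells were 1 RNA whose own spread is not in p. In these bulk RNAs, fewer cells that express a gene and less RNA per cell cannot be told apart.

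In Dicer-null over wild-type cells, 3 of the 17 tested member probes rose and 3 fell, or 17.6% each way, beside 20.0% of all tested probes that rose and 19.8% that fell. The members that rose were Hmga2 (at 1 of 3 probes), Igf2bp2 and Plagl2. Those that fell were Lin28, Hmga1 and Mycn (at its 1 tested probe). Hmga1 was saturated in red on all 12 arrays, so its direction is not reliable. The median of the 17 probes was -0.14, beside 0.01 for all tested probes. Fibroblast markers were lower in the same comparison: 9 of 14 tested markers fell and 2 rose, and their summed linear signal was 20110 to 20630 in the Dicer-null RNAs and 84420 in the wild-type RNA. Of the 14 fibroblast markers, 1 or 2 were never well above background in a Dicer-null RNA and 0 in the wild-type RNA. All 13 ES cell markers were well above background in every RNA, and 8 rose and none (0) fell, with sums of 295700 to 304100 in the Dicer-null RNAs and 209800 in the wild-type RNA. Of 10 trophoblast markers 6 fell and 1 rose, with sums of 22940 to 23520 in the Dicer-null RNAs and 79250 in the wild-type RNA. Of 9 primitive endoderm markers 4 fell and 0 rose (2096 to 2695 in the Dicer-null RNAs and 3898 in the wild-type RNA), and of 8 neuroectoderm markers 3 fell and 2 rose (10080 to 10520 and 13770 in the same order). The part of these cell markers in the member values was not tested.

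**Figure D1:**
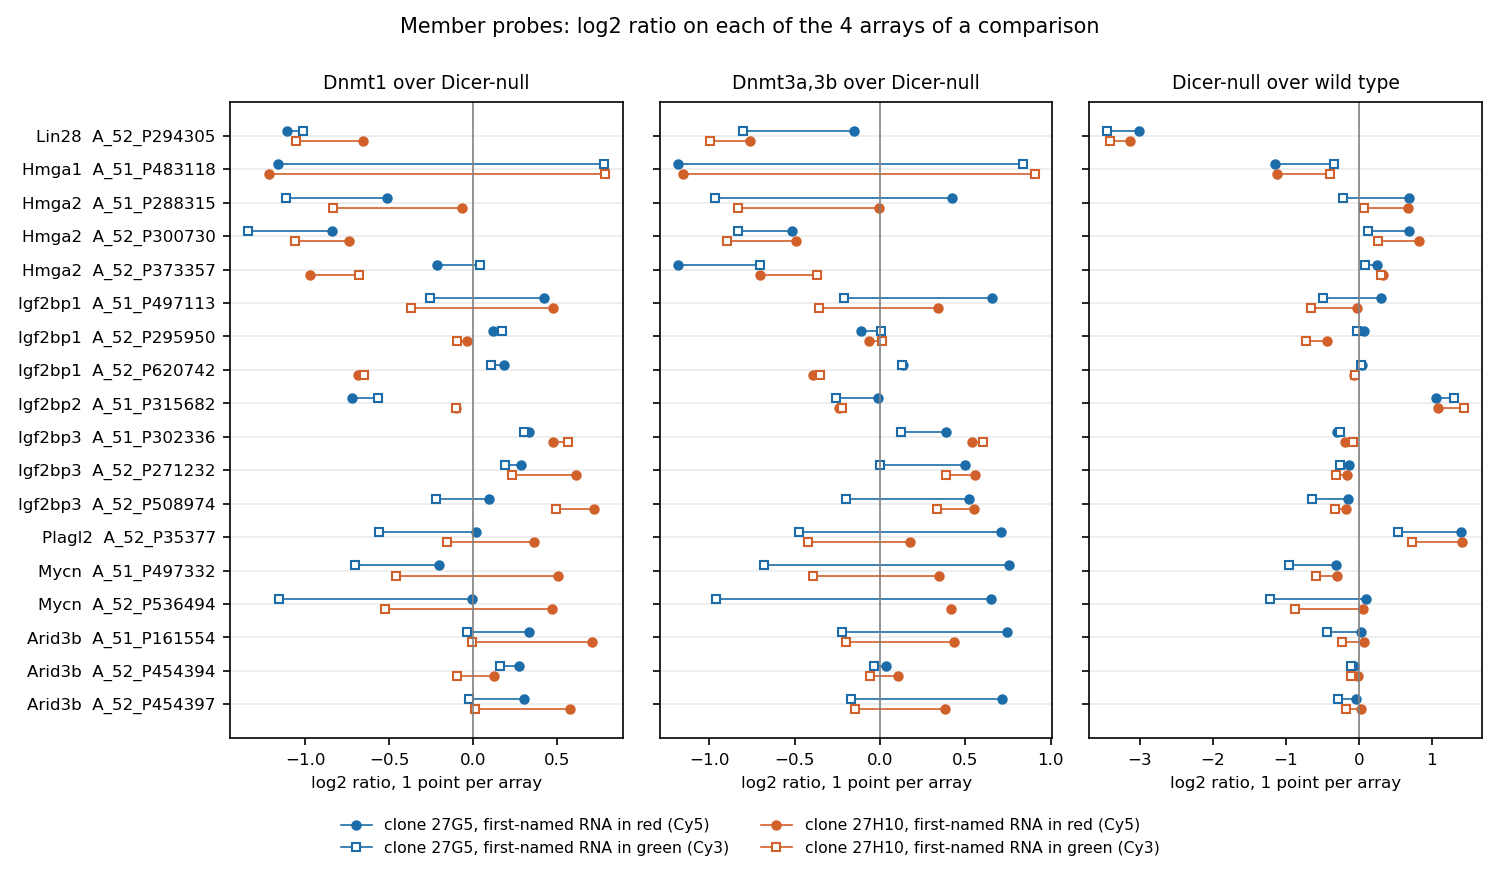
Log2 ratio of each of the 18 member probes (rows) on each of the 4 arrays of the 3 comparisons (panels), coloured by clone, with filled points for the first-named RNA in red and open points for the dye-swapped array. Lin28 lies below -3 on all 4 arrays of Dicer-null over wild type, and Hmga1 changes sign with the dye in both comparisons with a Dnmt label.

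Lin28 had the lowest ratio of the 17 tested member probes in this comparison. Its 1 probe, A_52_P294305, lies at chr4:133382045-133382104 on the minus strand (mm7). In Dicer-null over wild-type cells the ratio was -3.01 and -3.44 on the arrays of clone 27G5 and -3.13 and -3.40 on those of clone 27H10. All 4 arrays were more than 3 log2 units below 0, and the clones overlapped. Lin28 fell, at -3.24 ± 0.03 (9.47-fold lower, adjusted p = 0.000103), and 20 of the 28805 tested probes were lower. The call held under all 18 alternatives, with values from -3.42 to -3.07.

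In the Dnmt1-labelled lines Lin28 was lower than in their Dicer-null parents, at -1.11 and -1.01 in clone 27G5, while clone 27H10 gave -0.65 and -1.05. The mean was -0.96 ± 0.15 (1.94-fold lower, adjusted p = 0.00586). For the Dnmt3a,3b label the arrays gave -0.15 and -0.80 in clone 27G5, while clone 27H10 gave -0.76 and -0.99. The array of clone 27G5 with the Dnmt3a,3b-labelled RNA in red stood nearest to 0, and all 8 arrays were below 0. The mean of -0.68 ± 0.28 passed the test (1.60-fold lower, adjusted p = 0.0139), but with 1 clone left out it did not (adjusted p = 0.0672 with clone 27H10 alone and 0.124 with clone 27G5 alone). With shared RNAs modelled, the adjusted p was 0.0578 for the Dnmt1 label and 0.108 for the Dnmt3a,3b label.

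By its single-channel log2 level, Lin28 was highest in the wild-type RNA. The level was 8.39 ± 0.12 and 8.69 ± 0.29 in the Dnmt1-labelled RNAs of clones 27G5 and 27H10, and 8.99 ± 0.38 and 8.57 ± 0.10 in the Dnmt3a,3b-labelled RNAs (SD over 2 arrays each). The Dicer-null RNAs had 9.53 ± 0.16 and 9.55 ± 0.11 (6 arrays each), and the wild-type RNA had 12.91 ± 0.06 (4 arrays). The 4 Dnmt-labelled RNAs were the lowest and partly overlapped, the 2 Dicer-null RNAs overlapped within their SD, and the wild-type RNA was apart from every other. Lin28b, the paralog of Lin28, did not pass the test at its brightest probe, with log2 ratios of -0.32 ± 0.04 for the Dnmt1 label (adjusted p = 0.0576), -0.23 ± 0.10 for the Dnmt3a,3b label (adjusted p = 0.128) and -0.09 ± 0.19 in Dicer-null over wild-type cells (adjusted p = 0.487).

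**Figure D2:**
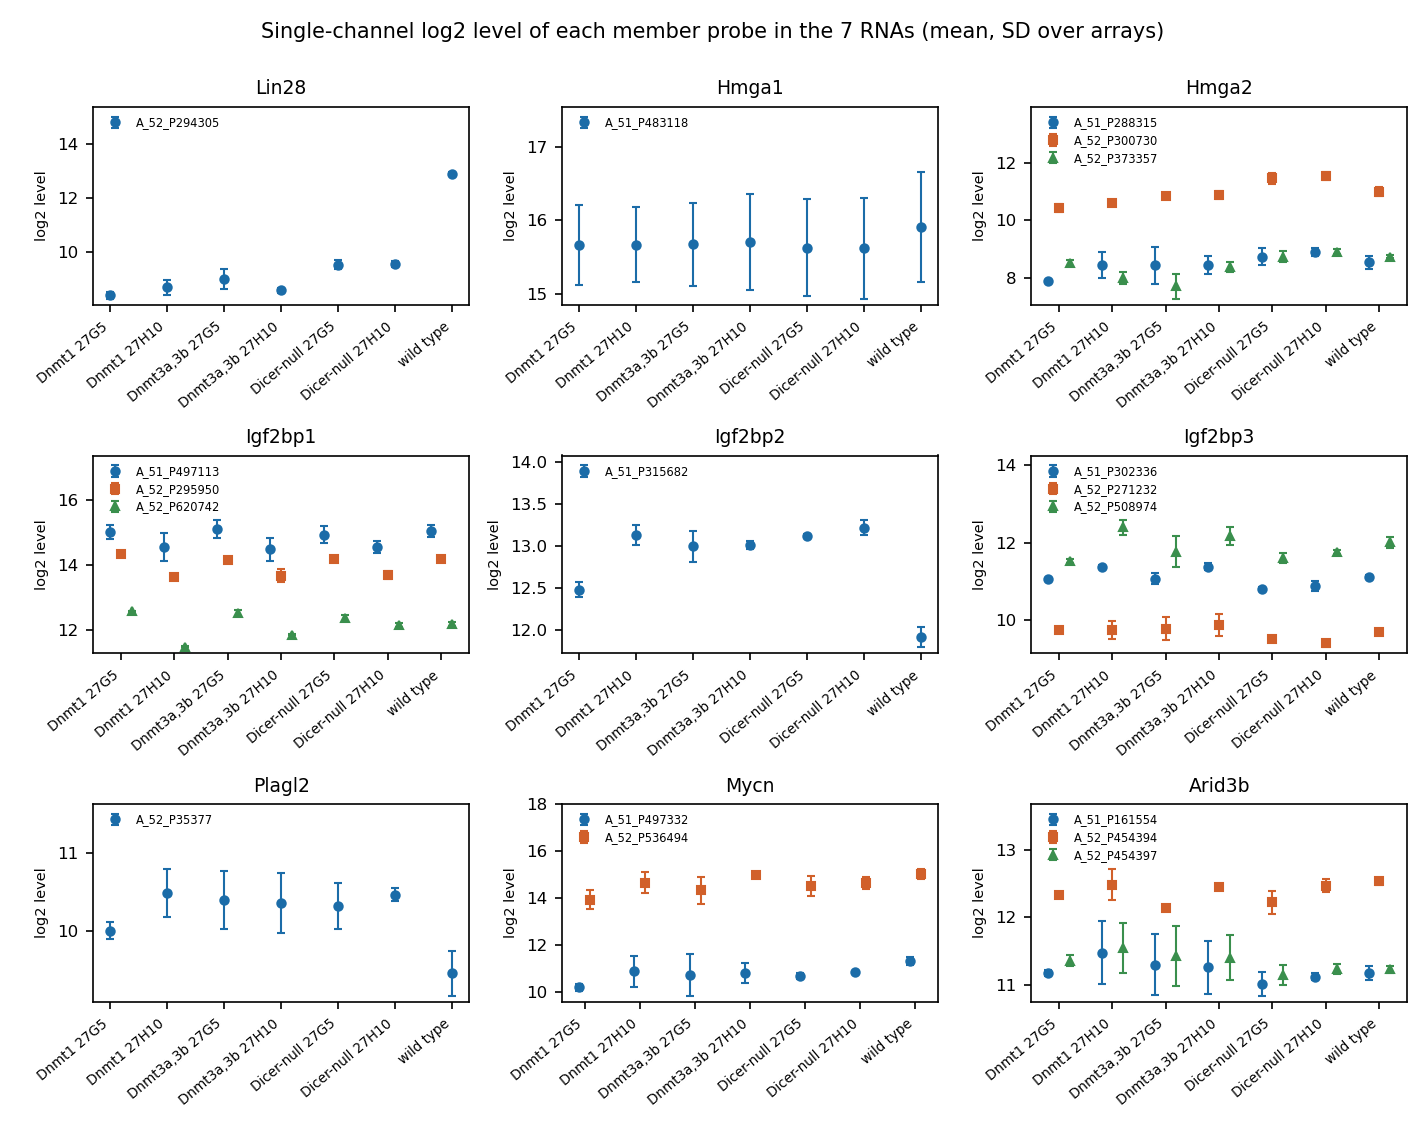
Single-channel log2 level (vertical axes, mean with SD over the arrays that hold the RNA) of each member probe in the 7 RNAs, 1 panel per gene and 1 symbol per probe. Lin28 is at 12.91 in the wild-type RNA and between 8.39 and 9.55 in the other RNAs, while Igf2bp2 is at 11.91 in the wild-type RNA and between 12.48 and 13.21 in the others. Levels are read within a probe, since probes differ in how they bind.

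Hmga2 and Hmga1 encode architectural chromatin proteins that bind AT-rich DNA. Hmga2 has 3 probes, of which A_52_P300730, the brightest, carries the seed match shown above. At that probe the Dnmt1-labelled lines were at -0.84 and -1.34 in clone 27G5, while clone 27H10 gave -0.74 and -1.06 over their parents. The Dnmt3a,3b-labelled lines were at -0.52 and -0.83 in clone 27G5, while clone 27H10 gave -0.49 and -0.90. Every one of these 8 arrays was below 0. The means were -0.997 ± 0.134 for the Dnmt1 label (2.00-fold lower, adjusted p = 0.00294) and -0.685 ± 0.014 for the Dnmt3a,3b label (1.61-fold lower, adjusted p = 0.00641). The second call was lost with clone 27H10 alone (adjusted p = 0.0857), with clone 27G5 alone (adjusted p = 0.0788) and with shared RNAs modelled (adjusted p = 0.0828).

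In Dicer-null over wild-type cells the same Hmga2 probe was at 0.68 and 0.13 in clone 27G5, while clone 27H10 gave 0.82 and 0.27. The arrays with Dicer-null RNA in red gave the higher values in both clones, and all 4 were above 0. Hmga2 rose there by 0.48 ± 0.10 (1.39-fold, adjusted p = 0.00742). The adjusted p was 0.0564 with clone 27H10 alone, 0.113 with clone 27G5 alone and 0.184 with shared RNAs modelled. The level of this probe was 10.43 ± 0.14 and 10.60 ± 0.06 in the Dnmt1-labelled RNAs of clones 27G5 and 27H10, 10.84 ± 0.02 and 10.89 ± 0.13 in the Dnmt3a,3b-labelled RNAs, 11.47 ± 0.18 and 11.56 ± 0.13 in the Dicer-null RNAs, and 10.997 ± 0.164 in the wild-type RNA. The Dicer-null RNAs were the highest, and both Dnmt3a,3b-labelled RNAs overlapped the wild-type RNA within the SD.

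The other Hmga2 probes had values of the same sign as the brightest in the 3 comparisons but not the same calls. A_51_P288315 (chr10:119756830-119756889) fell in the Dnmt1-labelled lines, at -0.63 ± 0.26 (adjusted p = 0.0147). On the arrays with the Dnmt1-labelled RNA in red alone it was at -0.29 (adjusted p = 0.213), and the adjusted p was 0.133 with shared RNAs modelled and 0.0979 without moderation. It was at -0.34 ± 0.11 in the Dnmt3a,3b-labelled lines (adjusted p = 0.0751) and 0.31 ± 0.09 in Dicer-null over wild-type cells (adjusted p = 0.0724). A_52_P373357 (chr10:119769076-119769135), designed on another transcript, was at -0.46 ± 0.52 in the Dnmt1-labelled lines (adjusted p = 0.138). Its arrays there were -0.22 and 0.04 in clone 27G5, while clone 27H10 gave -0.97 and -0.68, so the clones did not overlap. In the Dnmt3a,3b-labelled lines this probe was at -0.74 ± 0.29 and passed the test (adjusted p = 0.0425), but not with clone as a block (adjusted p = 0.0566) or with clone 27H10 alone (-0.54, adjusted p = 0.316) or clone 27G5 alone (-0.94, adjusted p = 0.130), and the call was lost under 7 of 17 alternatives in all. It was at 0.24 ± 0.10 in Dicer-null over wild-type cells (adjusted p = 0.360).

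Hmga1 was saturated in the red channel on all 12 arrays and in the green channel on 2, so its ratios are not reliable in size or direction and no fold is given. The Dnmt1-labelled lines gave -1.17 and 0.78 in clone 27G5, while clone 27H10 gave -1.22 and 0.79, and the Dnmt3a,3b-labelled lines gave -1.18 and 0.84, and -1.15 and 0.91. In each clone the sign followed the dye. Dicer-null over wild-type cells gave -1.14 and -0.34 in clone 27G5, while clone 27H10 gave -1.12 and -0.39, below 0 in both dye orientations, and the mean of -0.75 ± 0.01 was counted among the calls above (adjusted p = 0.000879). Without saturated spots, 5 member probes were called in that comparison in place of 6.

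The Igf2bp genes encode RNA-binding proteins that bind Igf2, Myc and other messages and regulate their stability, location and translation. Igf2bp2 rose in Dicer-null over wild-type cells. The arrays of A_51_P315682 were 1.06 and 1.30 in clone 27G5, while clone 27H10 gave 1.08 and 1.44. All 4 were above 1, and the mean was 1.22 ± 0.06 (2.33-fold, adjusted p = 0.00143), a call held under all 18 alternatives. Igf2bp2 was at -0.72 and -0.57 in the Dnmt1-labelled line of clone 27G5 but at -0.10 and -0.10 in that of clone 27H10 (mean -0.37 ± 0.39, adjusted p = 0.0999). It was at -0.18 ± 0.07 in the Dnmt3a,3b-labelled lines (adjusted p = 0.370). Its level was 12.48 ± 0.09 and 13.12 ± 0.12 in the Dnmt1-labelled RNAs, 12.99 ± 0.19 and 13.00 ± 0.05 in the Dnmt3a,3b-labelled RNAs, 13.11 ± 0.02 and 13.21 ± 0.09 in the Dicer-null RNAs and 11.91 ± 0.12 in the wild-type RNA, in the order of clones 27G5 and 27H10. The wild-type RNA was the lowest, and the Dnmt1-labelled RNA of clone 27G5 stood between it and the other RNAs.

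Igf2bp3 rose in lines with a Dnmt label. Its probes A_51_P302336 (chr6:49047900-49048507, 60 bases that span an interrupted stretch of 608 genomic bases) and A_52_P271232 (chr6:49067452-49067511) are shown whole, since they read separate stretches of the message and both passed the test in the Dnmt3a,3b-labelled lines.
Igf2bp3 A_51_P302336: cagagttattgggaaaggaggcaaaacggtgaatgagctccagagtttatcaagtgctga
Igf2bp3 A_52_P271232: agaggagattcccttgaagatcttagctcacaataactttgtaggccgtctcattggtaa
A_51_P302336 in the Dnmt1-labelled lines was at 0.33 and 0.30 in clone 27G5, while clone 27H10 gave 0.48 and 0.57, and rose by 0.42 ± 0.15 (1.34-fold, adjusted p = 0.0420). The Dnmt3a,3b-labelled lines gave 0.38 and 0.12 in clone 27G5 and 0.54 and 0.60 in the other clone, and the probe rose by 0.41 ± 0.22 (1.33-fold, adjusted p = 0.0451). The arrays were above 0 in both clones and both dye orientations. A_52_P271232 rose by 0.36 ± 0.16 in the Dnmt3a,3b-labelled lines (adjusted p = 0.0413) and was at 0.33 ± 0.13 in the Dnmt1-labelled lines (adjusted p = 0.0508). The third probe, A_52_P508974, was at 0.27 ± 0.48 for the Dnmt1 label (adjusted p = 0.292) and 0.30 ± 0.20 for the Dnmt3a,3b label (adjusted p = 0.243). These calls lie near the threshold, and those of A_51_P302336 were lost under 10 of 17 alternatives for each label. The call of A_52_P271232 for the Dnmt3a,3b label was lost under 8 of 17. The 3 probes were at -0.20, -0.22 and -0.32 in Dicer-null over wild-type cells, below 0 on all 4 arrays of each probe. None passed the test in limma (0 calls, and 0 at an unadjusted p under 0.05, which 14150 of all 28805 tested probes reached).

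Igf2bp1 was not called by limma at any of its 3 probes in these 3 comparisons (0 calls, and 0 at an unadjusted p under 0.05). Of all 28805 tested probes, 10918 passed at that unadjusted p for the Dnmt1 label and 10888 for the Dnmt3a,3b label. In Dicer-null over wild-type cells 14150 passed. The mean ratios ranged from -0.28 to 0.11. At A_52_P620742 (chr11:96071229-96071288) the clones went opposite ways. This probe in the Dnmt1-labelled lines was at 0.18 and 0.11 in clone 27G5, while clone 27H10 gave -0.68 and -0.65. The Dnmt3a,3b-labelled lines gave 0.14 and 0.13 in clone 27G5, while clone 27H10 gave -0.39 and -0.35. The arrays of a clone differed far less than the clones, which did not overlap. A_52_P295950, the probe with the seed match, was at 0.07 and -0.03 in clone 27G5, while clone 27H10 gave -0.43 and -0.73 in Dicer-null over wild-type cells (mean -0.28 ± 0.42, adjusted p = 0.186).

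Among the transcription factors, Plagl2, a zinc-finger activator related to PLAG1, rose in Dicer-null over wild-type cells. Its arrays were 1.40 and 0.53 in clone 27G5, while clone 27H10 gave 1.41 and 0.73. The arrays with Dicer-null RNA in red were higher by 0.78 on average, and all 4 were above 0. The mean was 1.02 ± 0.07 (2.03-fold, adjusted p = 0.00162), with an adjusted p of 0.0502 when shared RNAs were modelled. In the lines with a Dnmt label Plagl2 changed sign with the dye, with 0.02 and -0.56 in clone 27G5 for the Dnmt1 label, where clone 27H10 gave 0.36 and -0.16. For the Dnmt3a,3b label clone 27G5 gave 0.71 and -0.48, and clone 27H10 gave 0.18 and -0.42. The means were -0.08 ± 0.26 (adjusted p = 0.647) and -0.00 ± 0.17 (adjusted p = 0.992). The level was 10.002 ± 0.105 and 10.49 ± 0.31 in the Dnmt1-labelled RNAs, 10.39 ± 0.37 and 10.35 ± 0.38 in the Dnmt3a,3b-labelled RNAs, 10.32 ± 0.29 and 10.46 ± 0.09 in the Dicer-null RNAs and 9.45 ± 0.28 in the wild-type RNA.

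Mycn, a Myc-family activator of growth genes, was lower in Dicer-null than in wild-type cells at A_51_P497332. The arrays were -0.30 and -0.96 in clone 27G5, while clone 27H10 gave -0.29 and -0.58. The mean of -0.53 ± 0.14 passed the test (1.45-fold lower, adjusted p = 0.0203), but 5 of 18 alternatives took the call away, both single-clone fits included. In the lines with a Dnmt label the same probe was at -0.22 ± 0.34 for Dnmt1 (adjusted p = 0.271) and 0.01 ± 0.04 for Dnmt3a,3b (adjusted p = 0.971), and its arrays lay on both sides of 0. The brighter probe A_52_P536494 was not tested, because the scanner software flagged its spot on 1 array of the Dnmt3a,3b comparison in clone 27H10. That probe was also saturated in red on 2 arrays. It was at 0.10 and -1.21 in clone 27G5, while clone 27H10 gave 0.06 and -0.87 in Dicer-null over wild-type cells, a dye difference of 1.12 that is larger than the mean of -0.48. With the remaining array in place of the pair, its adjusted p was 0.0828.

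Arid3b, a DNA-binding protein of the ARID family, was not called by limma at any of its 3 probes in these comparisons (0 calls). At an unadjusted p under 0.05, 2 probes passed, both for the Dnmt1 label, where 10918 of all 28805 tested probes passed as well. In the Dnmt1-labelled lines the means were 0.25, 0.12 and 0.22 at A_51_P161554, A_52_P454394 and A_52_P454397 (adjusted p = 0.0970, 0.353 and 0.121). In the Dnmt3a,3b-labelled lines they were 0.19, 0.01 and 0.19, and in Dicer-null over wild-type cells -0.14, -0.07 and -0.12. The values at A_51_P161554 ran from -0.22 to 0.75 over the arrays of the Dnmt3a,3b comparison, with both arrays that held the Dnmt3a,3b-labelled RNA in red above 0 and both dye-swapped arrays below it.

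In the comparison of Dnmt1-labelled lines with their parents, 1 of 17 tested member probes, of Igf2bp3, rose (5.88%, beside 11.6% of all tested probes) and 3 fell (17.6%, beside 11.2%). Those that fell were Lin28 and the Hmga2 probes A_52_P300730 and A_51_P288315. For the Dnmt3a,3b label, 2 rose (11.8%, beside 10.8%) and 3 fell (17.6%, beside 11.2%). The 2 that rose were Igf2bp3 probes and the 3 that fell were Lin28 and the Hmga2 probes A_52_P300730 and A_52_P373357. With either clone left out, the member calls for the Dnmt3a,3b label were lost, as were most calls on the whole array. Such a fit takes its spread from the other comparisons. By clone (27G5, then 27H10), Lin28 was at -0.48 and -0.88. Hmga2 was at -0.68 and -0.695 (A_52_P300730) and at -0.94 and -0.54 (A_52_P373357). Igf2bp3 was at 0.25 and 0.57 (A_51_P302336) and at 0.25 and 0.47 (A_52_P271232). All 3 comparisons share the Dicer-null RNAs, so their values stand side by side and are not independent. Trophoblast markers were higher in the same lines: 6 of 10 rose in the Dnmt1-labelled and 7 of 10 in the Dnmt3a,3b-labelled lines, with none (0) lower, and their summed linear signal was 95360 to 122100 in the Dnmt-labelled RNAs and 22940 to 23520 in their Dicer-null parents, beside 79250 in the wild-type RNA. Of 8 neuroectoderm markers, 5 fell and 1 rose for the Dnmt1 label and 4 fell and 1 rose for the Dnmt3a,3b label, with sums of 5170 to 5785 in the Dnmt-labelled RNAs and 10080 to 10520 in the parents. Their part in the values of Lin28 and Hmga2 was not tested.

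**Figure D3:**
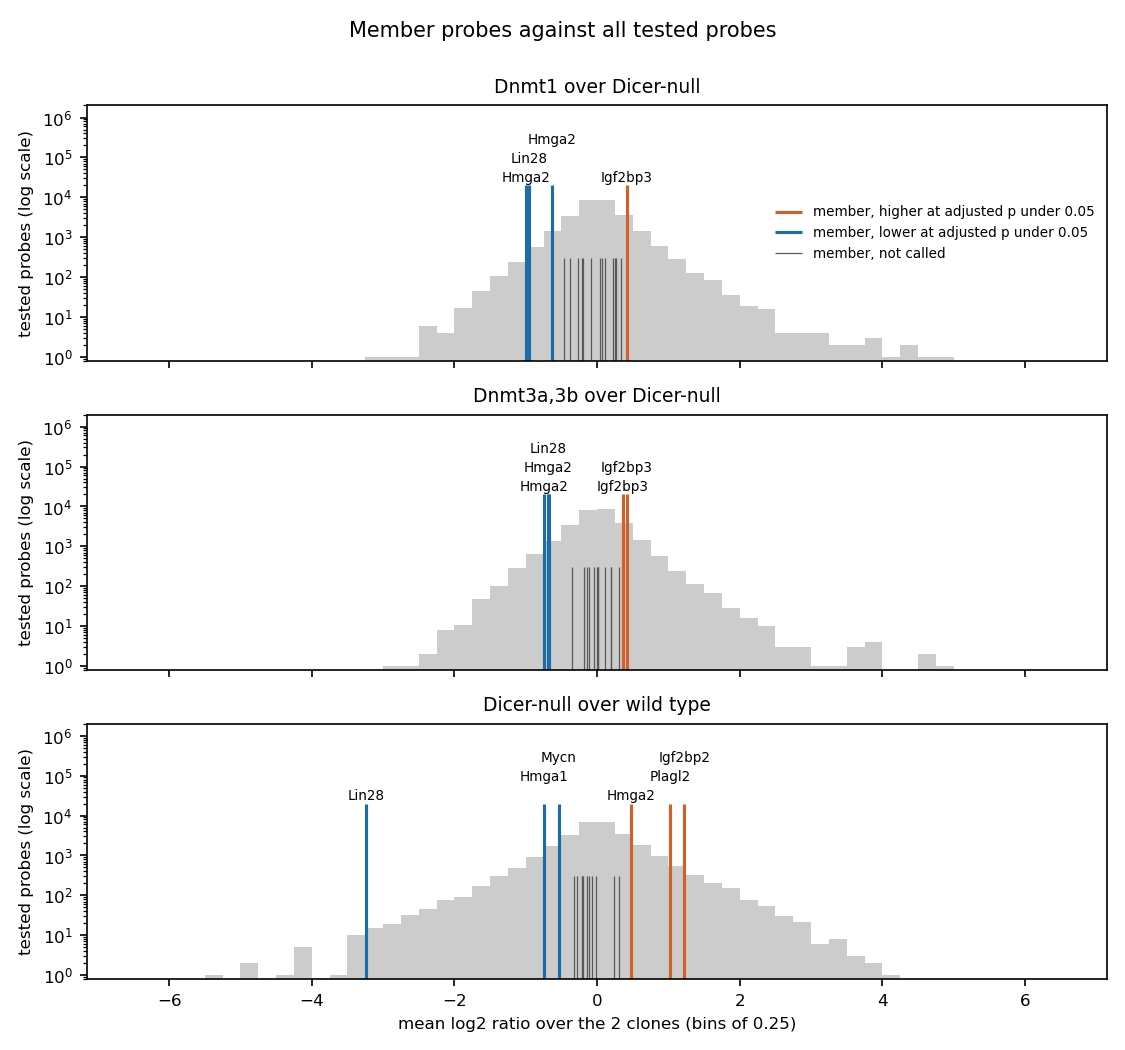
Mean log2 ratio over the 2 clones of the 17 tested member probes (lines, tall where called and labelled by gene) over the number of tested probes in bins of 0.25 (grey bars, logarithmic axis), 1 panel per comparison. Lin28 at -3.24 is in the lower tail for Dicer-null over wild type, while the other members lie between -0.75 and 1.22.

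The promoters of Lin28 and Hmga2 are shown because both genes fell in lines labelled with a DNA methyltransferase, whose substrate is the CG pair. DNA methylation was not measured, and its part in these values was not tested. The 250 bases before the start are from RefSeq on GRCm38.p6, at chr4:134018817-134019066 for Lin28a and chr10:120476470-120476719 for Hmga2, both read on the minus strand, with CG in capitals.
Lin28a: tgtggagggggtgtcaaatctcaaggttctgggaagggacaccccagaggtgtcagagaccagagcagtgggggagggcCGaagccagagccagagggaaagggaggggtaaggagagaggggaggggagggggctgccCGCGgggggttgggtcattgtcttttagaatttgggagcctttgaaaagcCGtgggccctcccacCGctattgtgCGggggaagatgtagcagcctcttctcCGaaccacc
Hmga2: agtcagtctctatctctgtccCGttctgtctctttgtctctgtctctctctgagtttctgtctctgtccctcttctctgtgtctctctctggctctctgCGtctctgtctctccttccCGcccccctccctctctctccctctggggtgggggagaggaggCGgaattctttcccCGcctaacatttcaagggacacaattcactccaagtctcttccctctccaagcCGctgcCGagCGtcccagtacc
The Lin28a window holds 7 CG pairs and the Hmga2 window 8, where the median over 32851 promoters of this length is 6. As many or more are found in 46.3% of promoters for Lin28a and in 43.0% for Hmga2. Igf2bp3 has 21 and Igf2bp2 has 40. Mycn has 11, the 2 listed windows of Arid3b have 21 and 23, and those of Hmga1 have 34 and 35. No window was listed for Igf2bp1 or Plagl2.

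For an indirect comparison with wild type, the ratio of each Dnmt-labelled line to its Dicer-null parent was added to that of the parent to wild type. In the Dnmt1-labelled lines over wild type, 2 of 17 probes rose and 4 fell, beside 14.8% and 14.2% of all tested probes. Lin28 was at -4.20 ± 0.12 (18.4-fold lower, adjusted p = 0.000449), Hmga2 A_52_P300730 at -0.52 ± 0.23 (adjusted p = 0.0248), and Mycn A_51_P497332 at -0.75 ± 0.47 (adjusted p = 0.0283), and saturated Hmga1 was also called lower. Igf2bp2 was at 0.85 ± 0.44 (adjusted p = 0.0231) and Plagl2 at 0.94 ± 0.34 (adjusted p = 0.0114). In the Dnmt3a,3b-labelled lines over wild type, 2 rose and 2 fell, beside 14.8% and 14.6%. There Lin28 was at -3.92 ± 0.31 (15.2-fold lower, adjusted p = 0.000647), Igf2bp2 at 1.04 ± 0.01 (adjusted p = 0.0128) and Plagl2 at 1.02 ± 0.10 (adjusted p = 0.00899), with saturated Hmga1 as the other probe called lower. Hmga2 A_52_P300730 was at -0.21 ± 0.08 and did not pass (adjusted p = 0.236). With either clone left out, 1 residual degree of freedom is left. In the Dnmt3a,3b-labelled lines over wild type, calls were then lost over the whole array, so their loss at the members is not particular to them. By clone, Lin28 was at -3.70 in clone 27G5 and -4.14 in clone 27H10 in these lines. In the Dnmt1-labelled lines over wild type it was at -4.28 and -4.12 in the same order.

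Between the Dnmt3a,3b-labelled and the Dnmt1-labelled lines no member probe was called by limma (0 of 17 higher and 0 lower, beside 0.00% each way of all tested probes). Both ratios hold the same Dicer-null RNA of a clone, which this fit did not model. It called no probe on the whole array, so the absence of calls does not show that the lines are alike. At an unadjusted p under 0.05, 281 of all tested probes passed, among them 1 member probe, Hmga2 A_52_P300730, with 0.31 ± 0.15 (unadjusted p = 0.0412). Lin28 was at 0.28 ± 0.43 between these lines, with 0.58 in clone 27G5 and -0.02 in clone 27H10.

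Genes around the let-7 pathway were described from 4 lists by the brightest tested probe of each gene, beside 17119 named genes. In Dicer-null over wild-type cells 21.4% of all genes rose and 21.4% fell. In the Dnmt1-labelled lines 13.3% rose and 10.9% fell, and in the Dnmt3a,3b-labelled lines 11.9% rose and 10.2% fell. The median over all genes was 0.02 for each Dnmt label and 0.01 in Dicer-null over wild-type cells.

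The list of let-7 biogenesis, turnover and Lin28 partners had 23 tested genes of 24 (Trim71 was not tested). Over wild type, 7 rose in Dicer-null cells and 2 fell (median 0.16). Eif2c1, which encodes the small-RNA carrier Argonaute 1, rose by 1.72 ± 0.10 (adjusted p = 0.000586), Eif2c2, encoding Argonaute 2, by 0.70 ± 0.20 (adjusted p = 0.00353), and the RNA-editing enzyme gene Adar by 0.78 ± 0.02 (adjusted p = 0.00246). The second probe of Adar gave -0.78, so its direction depends on the probe. In the Dnmt1-labelled lines 1 rose and 4 fell (median -0.17), and in the Dnmt3a,3b-labelled lines 2 rose and 5 fell (median -0.15). Syncrip, an RNA-binding protein gene, fell, at -1.32 ± 0.57 for the Dnmt1 label (adjusted p = 0.00883) and -1.22 ± 0.07 for the Dnmt3a,3b label (adjusted p = 0.0110). Msi1, an RNA-binding protein that cooperates with Lin28 in the control of let-7, fell, at -0.57 ± 0.10 (adjusted p = 0.00886) and -0.55 ± 0.04 (adjusted p = 0.00986) in the same lines. It rose by 0.54 ± 0.11 in Dicer-null over wild-type cells (adjusted p = 0.00432). Dicer1 at its brighter probe was at -0.63 ± 0.09 for the Dnmt1 label (adjusted p = 0.00625) and -0.77 ± 0.08 for the Dnmt3a,3b label (adjusted p = 0.00428). Its other probe, A_51_P333060, was at -0.04 ± 0.03 and -0.07 ± 0.01 there and was not called. That probe was well above background on 0 of 4 arrays in either channel of these comparisons.

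Other published let-7 targets, 26 of 28 tested (Irs2 and Acvr1c were not), were mostly lower in Dicer-null cells: 14 fell and 2 rose over wild type (median -0.38). Thbs1, encoding thrombospondin 1, fell, at -2.20 ± 0.36 (adjusted p = 0.000295), Gatm, a creatine synthesis enzyme, at -1.38 ± 0.14 (adjusted p = 0.000560) and the imprinted Peg10 at -1.38 ± 0.19 (adjusted p = 0.00131). Gatm was well above background on 1 of 4 arrays in the Dicer-null channel, and Peg10 on 3 of 4. Fibroblast markers fell in the same comparison at 9 of 14 genes, and their part in these values was not tested. For the Dnmt1 label 3 rose and 3 fell (median 0.02). Thbs1 rose by 0.68 ± 0.20 (adjusted p = 0.0235), and the cyclin Ccnd1 fell, at -0.49 ± 0.01 (adjusted p = 0.0109). For the Dnmt3a,3b label 5 rose and 4 fell (median 0.09), with Thbs1 at 1.00 ± 0.03 (adjusted p = 0.00847) and the cyclin Ccnd2 at 0.93 ± 0.43 (adjusted p = 0.0143).

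Other oncofetal genes, 9 of 10 tested (Plag1 was not), split in Dicer-null over wild-type cells, where 2 rose and 4 fell (median -0.18). The growth factor Igf2 fell, at -2.69 ± 0.45 (adjusted p = 0.000380) and the imprinted noncoding RNA H19 at -1.08 ± 0.21 (adjusted p = 0.00120), while Plagl1, an imprinted zinc-finger gene of the same family as Plagl2, rose by 2.46 ± 0.23 (adjusted p = 0.000622). In the lines with a Dnmt label, compared with the same Dicer-null RNAs, H19 rose by 2.00 ± 0.08 for Dnmt1 (adjusted p = 0.00148) and 1.84 ± 0.20 for Dnmt3a,3b (adjusted p = 0.00193), and Igf2 rose by 1.47 ± 0.28 (adjusted p = 0.00681) and 1.69 ± 0.31 (adjusted p = 0.00516). For each label 3 of the 9 rose and none (0) fell, with medians of 0.56 and 0.32. The third was Dlk1, a Notch-related surface protein gene, at 0.68 ± 0.12 for Dnmt1 (adjusted p = 0.0189), and the claudin Cldn6, at 0.95 ± 0.45 for Dnmt3a,3b (adjusted p = 0.0425). Trophoblast markers rose in the same lines, 6 of 10 for Dnmt1 and 7 of 10 for Dnmt3a,3b, and their part in these values was not tested.

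Partners of Mycn and Myc rose in Dicer-null over wild-type cells at 6 of 8 genes, and none (0) fell (median 0.58). Mxd4 rose by 0.98 ± 0.10 (adjusted p = 0.00118), Mxd3 by 0.90 ± 0.10 (adjusted p = 0.00691) and Mnt by 0.80 ± 0.10 (adjusted p = 0.00171). These encode proteins that bind Max in place of Myc and repress. For the Dnmt1 label 1 rose, Max, the shared partner, at 0.75 ± 0.25 (adjusted p = 0.0283), and none (0) fell (median -0.05). For the Dnmt3a,3b label none (0) rose and 2 fell (median 0.00), Mad at -0.50 ± 0.12 (adjusted p = 0.0353) and Mxd4 at -0.42 ± 0.10 (adjusted p = 0.0359).

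**Figure D4:**
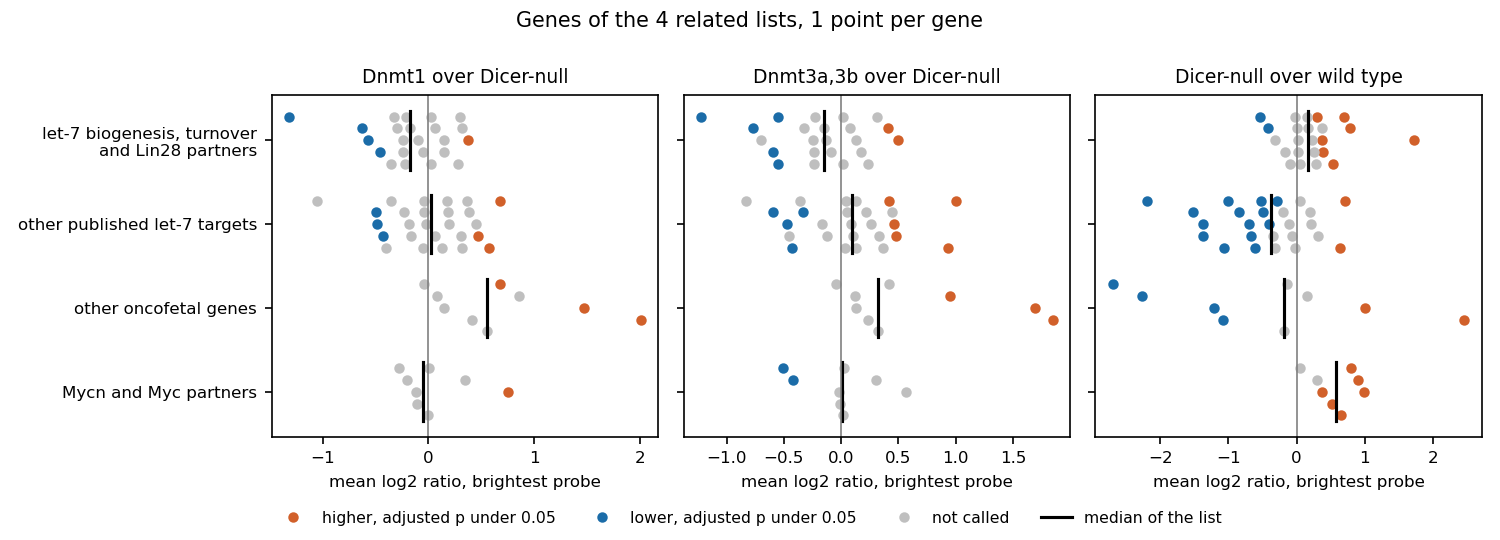
Mean log2 ratio of the brightest probe of each tested gene (1 point) in the 4 related lists (rows) for the 3 comparisons (panels), coloured where the adjusted p was under 0.05, with the list median as a black bar. Other published let-7 targets have 14 of 26 genes lower in Dicer-null over wild-type cells, and Mycn and Myc partners have 6 of 8 higher.

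The genes most like Lin28 over the 6 ratios were found among 25811 tested probes of other named genes, by the root mean square difference in log2 ratio. They were Has2, a hyaluronan synthase, at 0.29, Efna5, an ephrin, at 0.39, Gap43, a growth-cone protein, at 0.40, Klk8, a serine protease, at 0.44, and Kif1a, a kinesin motor, at 0.47. Has2 was at -2.95 and -3.03 in clones 27G5 and 27H10 for Dicer-null over wild-type cells, and Efna5 at -2.79 and -3.21. Efna5, Klk8 and Kif1a were well above background on all 4 arrays in the channel of each labelled line. Has2 was well above background on 0 of 4 arrays in the Dnmt1-labelled channel and 1 of 4 in the Dnmt3a,3b-labelled channel, and Gap43 on 0 of 4 in both. Their ratios to the Dicer-null parents are therefore bounds or nearly so, and the likeness of these 2 genes to Lin28 rests in part on them.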

How the data were processed

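RNA of 7 cell lines was measured on 12 Agilent 2-colour arrays. The deposited scanner files hold the mean spot intensity and the median local background in green (Cy3) and red (Cy5) as Agilent Feature Extraction wrote them, per the file headers. The same files give a log10 ratio of red over green after the software's background and dye correction, per the file headers, and flags for saturation and outliers. The authors also deposited a table of log2 ratios. Set against the log10 ratios of the same arrays, it holds the first-named cells over the second and is not centred on the median, and how the authors made it is not given in the sources used here. No column of another sample was met (0 columns).

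The intensities were corrected with normexp (offset 50) and normalized by loess within each array in limma 3.58.1 (R 4.3.3). Ratios were turned to the first-named cells, spots were averaged per probe, and the 2 arrays of a dye-swap pair were averaged into 1 ratio, so n is 2 clones per comparison. A probe was tested if it was well above background on both arrays of a pair in the channel of at least 1 RNA and unflagged on all 12 arrays. The 28805 probes were fitted with lmFit and eBayes (3 residual degrees of freedom), p-values were adjusted by Benjamini-Hochberg over all of them, and a call needed an adjusted p under 0.05. The fit was tested on simulated ratios with independent noise. These leave out the RNAs that the real ratios share, so they do not show the error rate of the calls here. Levels are single-channel log2 values and are compared within a probe. A probe saturated on every array of a channel has no fold here.

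The members, gene lists and cell markers were chosen with earlier results of these data known. All member probes are named. From each related list up to 3 called genes per comparison with the largest moderated statistic are named, at the brightest tested probe, and so are the 5 genes most like Lin28 and Dicer1. One gene that this rule names is not reported here. Lin28b, the second Adar probe, and Msi1 and Dicer1 outside that rule were added after their values were seen. Alternatives numbered 18, of which 16 were planned and 2 (the remaining array of a pair with a left-out spot, and saturated spots left out) were chosen after seeing the data. Probe positions are on mm7, per the file headers. RefSeq sequences are on GRCm38.p6, and no coordinates were converted. Arrays give no counts, so their number limits the precision.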

Additional observations from a re-analysis of the deposited data

Results flagged for a closer look

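Igf2bp1 went opposite ways in the 2 clones at 2 of its 3 probes, on both arrays of each clone, and the difference between the clones was not tested. At A_52_P620742 clone 27G5 minus clone 27H10 was 0.81 for the Dnmt1 label (0.14 in clone 27G5 and -0.67 in clone 27H10). For the Dnmt3a,3b label the same difference was 0.50 (0.13 and -0.37 in the same order), and for Dicer-null over wild-type cells it was 0.0915 (0.04 and -0.05). At A_52_P295950 the difference was 0.21 for the Dnmt1 label (0.15 and -0.07). The third Igf2bp1 probe, A_51_P497113, did not show opposite signs on both arrays of each clone in any of these comparisons. Clone and slide cannot be told apart where a Dnmt-labelled line is compared with its parent.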

How the results depend on the processing

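Over the single-probe results and 18 alternatives, 768 values kept their direction and side of the threshold, 61 lost a call, 23 gained one and 36 changed sign, 32 of them between values that were not called. For the replicate numbers, no paired analysis was possible because they mark the dye-swapped arrays of the same RNAs. Clone ties the ratios across comparisons, and with clone as a block 1 member call was lost (Hmga2 A_52_P373357 for Dnmt3a,3b, adjusted p = 0.0566) and none (0) was gained. The cause of the changes below was not tested. Of the member probes, 6 were called for Dicer-null over wild type, with 3 when shared RNAs were modelled and 4 to 7 when a clone or a dye orientation was left out. The 4 calls for the Dnmt1 label became 2 with 1 probe a gene (9 tested), 1 with shared RNAs modelled, 0 without moderation and 4 to 8 with a clone or orientation left out. The 5 for Dnmt3a,3b became 3 with plain background subtraction, the scanner's log ratio, the authors' value table, no filter on dim probes, or a trended and robust fit, 2 with 1 probe a gene, 0 with shared RNAs modelled or without moderation, and 0 to 10 with a clone or orientation left out. Over wild type, the 6 calls for the Dnmt1-labelled lines became 3 with median centring, 2 with shared RNAs modelled or without moderation, and 3 to 7 with a clone or orientation left out, and the 4 for the Dnmt3a,3b-labelled lines became 2 without moderation and 0 to 9. The comparison of the 2 labels gave 0 calls under every alternative run. Over all 28805 tested probes, the Dnmt1-labelled lines over wild type had 4271 higher and 4098 lower calls in the main fit. Those became 3582 and 4333 with median centring, 1953 and 1823 with shared RNAs modelled, and 1056 and 1213 without moderation. Without moderation the Dnmt3a,3b-labelled lines over wild type had 985 and 1184, beside 4258 and 4202. With 1 probe a gene, 2410 of 20038 were higher and 2209 lower for Dnmt1, and 2092 and 2162 for Dnmt3a,3b.

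Of the 36 sign changes, 12 came with the first dye orientation left out, 6 with the second, 11 with a clone left out and 7 with another processing. The 4 that involved a called value came with the first orientation left out. For Hmga1 the value was 0.79 for Dnmt1 and 0.87 for Dnmt3a,3b, against -1.19 and -1.17 with the second left out. For Igf2bp1 A_51_P497113 (Dnmt1) it was -0.31 against 0.45, and for Mycn A_51_P497332 (Dnmt3a,3b) -0.53 against 0.55. Over all probes, modelling shared RNAs left 1272 higher and 1312 lower calls for Dicer-null over wild type, 413 and 294 for Dnmt1, and 300 and 288 for Dnmt3a,3b. Without moderation the counts were 3002 and 3240, 170 and 153, and 137 and 138. The 10 member calls for Dnmt3a,3b came with the second dye orientation left out. In that fit 5002 of all 28856 tested probes were higher and 4704 lower, beside 3102 and 3230 of 28805 in the main fit. For Dnmt1 the same setting gave 8 member calls, with 3293 and 3147 over all probes, beside 3348 and 3226. Without clone 27G5 the Dnmt3a,3b comparison had 41 higher and 10 lower calls, and without clone 27H10 it had 201 and 155. With 2 ratios per comparison, the lone ratio in these fits is assumed to vary like the others. Saturation limits Hmga1 and, on single arrays, Mycn A_52_P536494 and Igf2bp1 A_51_P497113.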
